A study of Mus musculus with 6 samples.

Results

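The genes of the Myc, Max and Mxd network were examined in ventricles of tetraploid chimeric mouse embryos at E9.5. The 8 members, Myc, Mycn, Max, Mga, Mnt, Mxi1, Mxd3 and Mxd4, were taken by symbol from the deposited table, where each had 1 row among 23284 genes. All 8 had at least 1 FPKM (fragments scaled to the length of the transcript and to the size of the library) in both groups, as did 11001 genes in all, which are called expressed genes here. The groups were 3 embryos from wild-type ES cells (WT) and 3 from Tbx5ua -/- ES cells (KD), and every sample carried the strain label C57BL/6. In KD cells both alleles of Tbx5ua, the lncRNA divergent to Tbx5, held tandem copies of a bovine growth hormone polyadenylation site in the second exon, and the selection cassettes had been removed with Cre. Such embryos are built by the injected ES cells, while the tetraploid host forms extraembryonic tissues. The edited ES cells were clonal, and the sources used here do not say which KD line gave these libraries, so the knockdown and the history of a clone cannot be told apart. Tbx5ua was not analysed here, and the labels were not checked with it.

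The table gives 1 pooled FPKM value a group and no value for single embryos. The spread between embryos and the depth of the libraries are therefore unknown here, no SD or test is given, and whether any difference below exceeds the spread between embryos was not judged, since the authors' own test columns were not used. All 9 cardiomyocyte markers were expressed in both groups, and their summed level was 25748 FPKM in WT against 24731 FPKM in KD. The epicardial markers were higher in KD in 7 of 7 genes, while 49.5% of all expressed genes were lower. Only 5 of these 7 were expressed in both groups. The summed level of all 7 was 47.1 FPKM in WT against 96.0 FPKM in KD. The summed levels were 11448 and 11525 FPKM for 6 primitive erythroid markers and 155 and 170 FPKM for 8 endocardial and endothelial markers. Among markers of other cell types Alb, Fgb, Foxd3 and Pax9 were listed at 0 in both groups, while the neuronal tubulin gene Tubb3 was at 12.2 FPKM in WT against 26.9 FPKM in KD. The part of these cell types in the values below was not tested, and in bulk tissue fewer cells of a type and less RNA per cell cannot be told apart.

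Myc and Mycn are basic helix-loop-helix leucine zipper proteins that bind the E-box, CACGTG, as dimers with Max and activate genes of growth, ribosome production and metabolism. The Mxd proteins, Mnt and Mga dimerize with the same partner and repress. Mxd proteins and Mnt recruit the Sin3 corepressor, and Mga, which also has a T-box domain, belongs to a Polycomb complex known as PRC1.6. Max thus sits at the centre, and the balance of activators and repressors that share it is a classic measure of the state of the network. Mycn is the Myc family gene known for its high expression in embryonic myocardium, where it is needed for growth of the ventricular wall.

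Promoter windows of RefSeq (GRCm38.p6) were found for 7 of the 8 members, all but Myc. Each spans 250 bases before to 50 bases after an annotated start. These windows are shown because the network reads the E-box and several of its own genes carry those letters. The window of Mycn lies at chr12:12941787-12942086 on the minus strand and had no CACGTG. It held a pair of matches to TTTGGCGC, letters known from sites of E2F factors, with their first bases at positions -183 and -168 relative to the start. Either of TTTCCCGC and TTTGGCGC, on both strands, was found in 1.56% of all 32851 windows. Counted by gene, a match was found in 1.80% of all 27025 genes with a window and in 3.65% of the 7871 expressed genes among them. In the sequences below, capitals mark these letters or the E-box, and there is no overlap between them.
Mycn: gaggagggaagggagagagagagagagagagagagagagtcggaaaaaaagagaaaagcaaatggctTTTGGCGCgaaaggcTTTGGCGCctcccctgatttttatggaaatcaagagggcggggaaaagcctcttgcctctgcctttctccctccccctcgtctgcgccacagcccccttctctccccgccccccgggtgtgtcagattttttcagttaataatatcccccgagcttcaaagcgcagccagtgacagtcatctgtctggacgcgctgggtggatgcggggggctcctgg

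The window of Mxd4, the member with the largest ratio between the groups, lies at chr5:34187661-34187960 on the minus strand and had 1 E-box, which begins 219 bases before the start.
Mxd4: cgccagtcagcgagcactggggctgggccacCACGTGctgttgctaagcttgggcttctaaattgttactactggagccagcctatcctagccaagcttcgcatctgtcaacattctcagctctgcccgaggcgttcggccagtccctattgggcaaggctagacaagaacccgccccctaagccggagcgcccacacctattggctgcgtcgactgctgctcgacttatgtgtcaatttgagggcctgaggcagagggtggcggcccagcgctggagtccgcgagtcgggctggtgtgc

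Max and Mnt were the other members with an E-box in the window. That of Max begins 3 bases before the start, in the window chr12:76962199-76962498 on the minus strand, and that of Mnt begins 123 bases before the start, in the window chr11:74830674-74830973 on the plus strand. For these genes 60 bases around the E-box are given.
Max: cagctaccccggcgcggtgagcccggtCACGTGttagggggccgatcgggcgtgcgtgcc
Mnt: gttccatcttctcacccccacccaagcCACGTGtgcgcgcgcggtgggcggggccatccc

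The E-box was thus found in 3 of 7 members with a window. It was found in 8.09% of all 27025 genes with a window and in 12.3% of the 7871 expressed genes among them. Mga, Mxi1, Mxd3 and Mycn had no CACGTG in these windows. The letters are a description of sequence and say nothing about binding in these embryos.

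The activators differed in opposite directions. Mycn was the most abundant member in both groups and was lower in KD, while Myc was higher in KD. Mxd4, a repressor of low abundance, was higher in KD by a factor of 2.19, the largest ratio of the members.

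Taking a ratio of at least 5 to 4 in either direction as the fold limit, which is 0.32 on the log2 scale, 3 of the 8 members (37.5%) were past this limit, compared with 18.6% of the 11001 expressed genes. Higher in KD were 2 members, Myc and Mxd4, compared with 10.4% of expressed genes, and lower in KD was 1 member, Mycn, compared with 8.19%. With 8 genes and no spread between embryos these shares are a description of the members. The remaining 5 members had log2 ratios of KD over WT between -0.042 and 0.21. The quartiles of all expressed genes were -0.14 and 0.15.

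**Figure D1:**
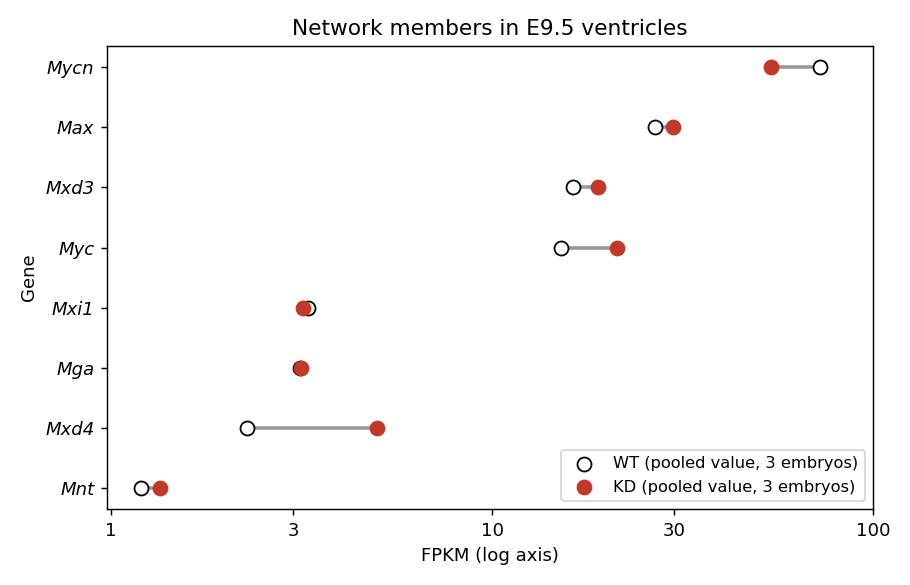
Level of each network member on a logarithmic FPKM axis, with the pooled WT value as an open circle and the pooled KD value as a filled circle, genes being ordered by their WT level. Mycn lies at 72.6 FPKM in WT against 53.9 FPKM in KD, whereas Mxd4 lies at 2.28 and 5.0 FPKM, and no error bar is drawn because there are no values of single embryos.

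Positions of genes are those of the table, on GRCm38 (mm10). Mycn (chr12:12936093-12941836, minus strand) had 72.6 FPKM in WT against 53.9 FPKM in KD. The log2 ratio was -0.43, so that the WT level was 1.35-fold the KD level. Of the expressed genes 10.6% had a larger absolute ratio, and 4.51% were further down than Mycn. Low genes are more spread. Among the 7429 genes with at least 5 FPKM in both groups 10.3% were past the fold limit, and 4.68% had a larger absolute ratio than Mycn. It ranked 1507 of the 11001 expressed genes by its WT level.

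Myc (chr15:61985341-61990361) had 15.1 FPKM in WT against 21.2 FPKM in KD, a log2 ratio of 0.49 or 1.40-fold. Of the expressed genes 7.84% had a larger absolute ratio, and of those with at least 5 FPKM in both groups 3.22%. The difference of KD less WT was 6.11 FPKM for Myc and -18.7 FPKM for Mycn, so the sum of both was lower in KD, with 87.7 FPKM in WT against 75.1 FPKM in KD. FPKM is scaled to transcript length, and levels of different genes are set side by side here on that basis alone. Differences between genes in amplification by PCR were not examined, so ratios between genes are approximate. Mycn exceeded Myc by a factor of 4.80 in WT and 2.54 in KD. Myc thus made up 17.2% of the sum of both in WT and 28.3% in KD, and Mycn remained the larger share in both groups. The neighbouring lncRNA gene Pvt1, whose locus lies 47625 bases from that of Myc, had 0.574 and 0.703 FPKM in WT and KD, below the expression limit of 1 FPKM.

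Among other genes that activate through related dimers, the Myc family gene Mycl was listed under its older symbol Mycl1 with 0.144 FPKM in WT against 0.387 FPKM in KD. Both values are below 1 FPKM, so Mycl contributed little to the total of the family in either group.

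Max, the common partner (chr12:76937269-76962248), had 26.8 FPKM in WT against 29.8 FPKM in KD. The log2 ratio was 0.15, and 47.6% of expressed genes had a larger absolute ratio, so its difference is within what is usual for this table. The summed level of Myc and Mycn exceeded that of Max by a factor of 3.27 in WT and 2.52 in KD. Max was the second most abundant member in both groups.

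Among the repressors Mxd4 stood apart, while Mxd3, Mnt and Mxi1 were within the fold limit. Mxd4 (chr5:34176580-34187710) had 2.28 FPKM in WT against 5.0 FPKM in KD, a log2 ratio of 1.13. Only 71 of the 11001 expressed genes, or 0.645%, had a larger absolute ratio. The WT value is close to the expression limit, where ratios are wider, and with 1 FPKM added to both values the log2 ratio was 0.87. Haus3, a gene for a subunit of the augmin complex of the spindle whose locus lies 7131 bases from that of Mxd4, differed in the opposite direction, with 27.9 FPKM in WT against 20.0 FPKM in KD. Zfyve28, 7183 bases from Mxd4, was below the expression limit with 0.0968 FPKM in WT against 0.322 FPKM in KD, higher in KD as Mxd4 was.

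Mxd3, which is known for expression in proliferating cells, was the most abundant repressor. It had 16.3 FPKM in WT against 18.9 FPKM in KD, a log2 ratio of 0.21. In the table Mxd3 shares the locus chr13:55322055-55329730 with Prelid1, a mitochondrial lipid transfer gene of the opposite strand that had 635 FPKM in WT against 666 FPKM in KD. In GENCODE M21 the exons of both genes overlap over 105 bases, at chr13:55325168-55325272. The Smart-Seq2 protocol does not mark the strand, so reads from this stretch cannot be assigned by strand and the level of Mxd3 is uncertain. Rab24, a small GTPase gene 74 bases from that locus, had 5.63 FPKM in WT against 9.16 FPKM in KD. Of 13 genes listed as neighbours of the members 12 were matched in the table and 9 were expressed, and Rab24 and Haus3 were the only ones past the fold limit, or 11.1% in each direction, near the 10.4% and 8.19% of all expressed genes. The 9 include Metap1d, which was listed beside Mga but lies elsewhere on that chromosome.

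Mxi1, also known as Mxd2 (chr19:53310506-53375810), had 3.28 FPKM in WT against 3.19 FPKM in KD. Its log2 ratio was -0.042. A predicted gene of the opposite strand, Gm10197, shares 194 exon bases with it in GENCODE M21, so the strand of reads there is likewise unknown. For Mxd4 the annotation lists an overlap of 514 exon bases with the antisense gene Gm42846, at chr5:34173887-34174887, which lies outside the locus that the table gives for Mxd4. Mnt (chr11:74830924-74845725) had the lowest level of the members, with 1.20 FPKM in WT against 1.34 FPKM in KD and a log2 ratio of 0.17. Mxd1, which completes the Mxd family, had 2.27 FPKM in WT against 2.71 FPKM in KD, a log2 ratio of 0.26.

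The summed level of Mnt, Mxi1, Mxd3 and Mxd4 was 23.1 FPKM in WT against 28.4 FPKM in KD. Mxd3 made up 70.7% of this sum in WT and 66.5% in KD, while the share of Mxd4 was 9.87% in WT and 17.6% in KD. The sum of the activators Myc and Mycn exceeded the sum of these repressors by a factor of 3.80 in WT and 2.64 in KD, a log2 difference of -0.52. Without Mxd3, whose level is uncertain, the log2 difference was -0.72, and without Mxd4 it was -0.39. The ratio was thus lower in KD with and without each of these 2 repressors. Mycn made up 82.8% of the sum of the activators in WT and 71.7% in KD. Myc alone was higher in KD, so the lower sum of the activators comes from Mycn, and the ratio was not computed without Mycn. This ratio compares levels of RNA and says nothing about the proteins, whose turnover is rapid.

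Mga (chr2:119897228-119969581) had 3.13 FPKM in WT against 3.15 FPKM in KD. Its log2 ratio of 0.0056 was the smallest of the members in size, and it became -0.025 when both groups were scaled to the same FPKM sum. Of the expressed genes 97.8% had a larger absolute ratio.

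**Figure D2:**
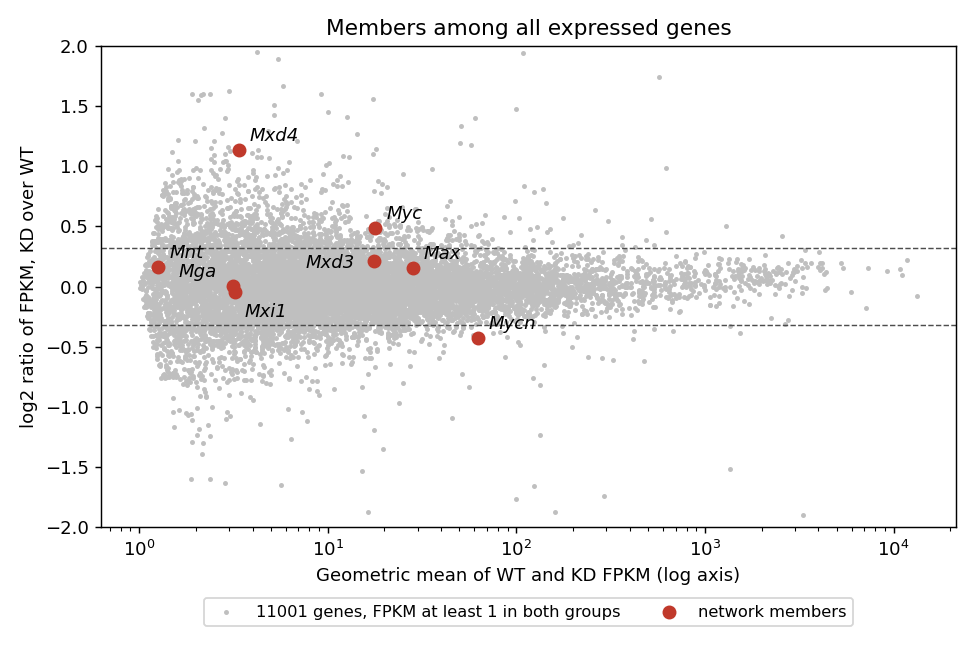
The log2 ratio of KD over WT against the geometric mean of both FPKM values on a logarithmic axis, for 11001 expressed genes as grey points and the 8 members as labelled red points. Dashed lines mark the fold limit of 0.32. Myc, Mycn and Mxd4 lie outside these lines and the other 5 members inside, and 11 genes lie beyond the axis limits of 2 in either direction.

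The arm of the network that pairs with Mlx in place of Max was measured beside the members. Mlx had 27.5 FPKM in WT against 28.3 FPKM in KD. Its glucose-responsive partner gene Mlxip had 9.30 FPKM in WT against 10.8 FPKM in KD, a log2 ratio of 0.22. Mlxipl, the partner known from liver, had 0.0508 FPKM in WT against 0.0140 FPKM in KD, both below the expression limit. Of the 3 expressed genes outside the members, Mxd1, Mlx and Mlxip, all were higher in KD and 0 were past the fold limit, beside 18.6% of all expressed genes past it and 49.5% lower.

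The partner complexes of the members were then counted. Of 15 genes of the Sin3 corepressor, which Mxd proteins and Mnt recruit, 3 (20%) were higher and 1 (6.67%) lower past the fold limit, beside 10.4% and 8.19% of all expressed genes, and the median log2 ratio was -0.0048, compared with 0.0026 over all expressed genes. Higher were Ing2, a reader of methylated histone H3 (1.34 and 2.51 FPKM in WT and KD), Sap30, a subunit of the complex (19.8 and 31.4 FPKM), and Ing1 (12.3 and 16.1 FPKM), whereas Arid4b was lower (6.97 and 5.39 FPKM). The central subunits Sin3a and Sin3b had 8.72 and 125 FPKM in WT, and 8.69 and 128 FPKM in KD. Of 13 genes of PRC1.6, the complex of Mga, 1 was higher and 1 lower past the fold limit, or 7.69% in each direction, which is near the 10.4% and 8.19% of all expressed genes. These were the ubiquitin ligase gene Ring1, with 2.74 FPKM in WT against 3.92 FPKM in KD, and the repressor gene E2f6, with 12.7 FPKM in WT against 9.69 FPKM in KD. The median of the list was -0.084.

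Of 17 genes for cofactors of Myc, 1 was higher past the fold limit, the elongation kinase gene Cdk9, with 4.95 FPKM in WT against 6.44 FPKM in KD, and 0 were lower. Of 17 genes for turnover of the Myc protein, which include the ubiquitin ligase genes Fbxw7, Skp2 and Huwe1, 0 were past the fold limit in either direction. Of all expressed genes 18.6% were past it. The medians of these lists were -0.046 and -0.021.

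Genes known to be induced by Myc for growth were mostly lower in KD by a small amount. Of 52 genes of ribosome production, nucleotide synthesis and metabolism, 51 were expressed. Of these, 42 were lower and 9 higher in KD, compared with 49.5% of all expressed genes lower. Past the fold limit, 7 (13.7%) were lower and 0 were higher, compared with 8.19% and 10.4% of all expressed genes. The median log2 ratio was -0.12. The direction of the background depends on the scaling: with both groups at the same FPKM sum 976 expressed genes were higher and 1113 lower past the fold limit, against 1140 higher and 901 lower without it, and 55.6% of expressed genes were lower. At that scaling 44 of the 51 growth genes were lower, 9 of them past the fold limit, with 0 higher past it. Among all genes with at least 5 FPKM in both groups 50.02% were lower, but the list was not matched for level, and the part of level in its values was not tested. Genes of a list vary together and are not independent replicates. This list was also chosen with earlier results of these data known, so its counts are a description only.

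The largest log2 ratios of this list in size were those of Polr1a, the gene of the largest subunit of RNA polymerase I, with 8.69 FPKM in WT against 5.50 FPKM in KD (log2 ratio -0.66), Prmt3, an arginine methyltransferase gene, with 34.8 and 23.9 FPKM (-0.54), and Rrp12, a gene of ribosome maturation, with 14.2 and 10.1 FPKM (-0.50). Of the growth genes 45 had a promoter window, and 14 of these (31.1%) held CACGTG, beside 12.3% of expressed genes with a window. With the E-box 11 of 14 expressed genes were lower in KD, with a median log2 ratio of -0.059, and without it 26 of 30 were lower, with a median of -0.13. Over all expressed genes with a window the medians were -0.0067 for 967 genes with the E-box and 0.0026 for 6904 genes without it. The median of the growth genes was thus closer to 0 with these letters than without them, a difference that was not tested.

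Of 10 genes known to be repressed by Myc or induced by the Mlx arm, 7 were expressed, with 6 higher and 1 lower in KD and a median log2 ratio of 0.17, whereas 49.5% of all expressed genes were lower. With 7 genes this is a description of few values. Past the fold limit were 3 of the 7, beside 18.6% of all expressed genes. These were Gadd45a, a growth arrest gene, with 1.23 FPKM in WT against 2.22 FPKM in KD, Txnip, a regulator of glucose uptake, with 25.3 and 34.8 FPKM, and in the opposite direction Cdkn1a, the gene of the cyclin-dependent kinase inhibitor p21, with 23.6 and 18.6 FPKM.

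**Figure D3:**
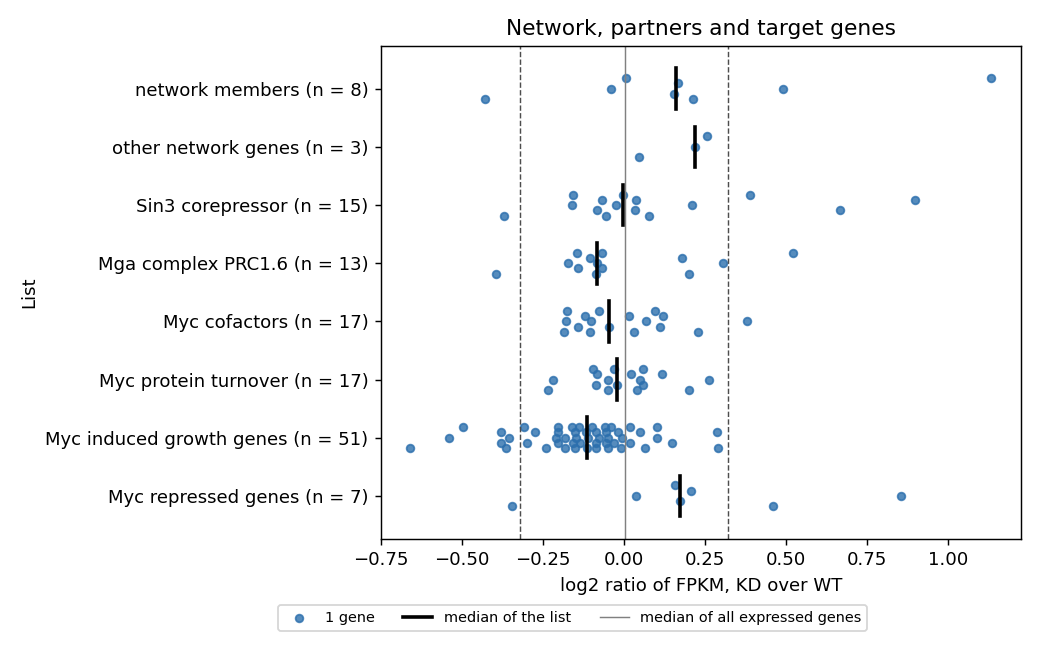
The log2 ratio of KD over WT for the expressed genes of each list, with each gene as a point, the median of the list as a black bar, the median of all expressed genes as a grey line and dashed lines at the fold limit. The growth genes induced by Myc lie mostly to the left, with 42 of 51 lower in KD, and the members spread from -0.43 for Mycn to 1.13 for Mxd4. The lists were chosen with earlier results of these data known.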

How the data were processed

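Total RNA of ventricles from 3 WT and 3 KD embryos at E9.5 was copied by Smart-Seq2 from 10 ng, amplified by PCR and sequenced single-end. The submitters' processing notes name TopHat, Bowtie2, Cuffdiff and mm10, without versions. The authors deposited 1 Cuffdiff table with an FPKM value per gene and group, the KD group being named KO. Its fold change, test score, p and q columns hold the authors' own comparison and were not used. Depth per library is unknown, and 0 columns of single samples were left unused.

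Ratios of KD over WT were computed without a pseudocount for genes with at least 1 FPKM in both groups, and an absolute log2 ratio of at least 0.32 was counted (the fold limit). No test between groups was made, since there is 1 pooled value a group. Members and lists were chosen with earlier results of these data known. Named were all members and related network genes, and in other lists at most the 3 largest ratios in each direction past that limit; other names, the E2F letters and the ratios without Mxd3 or Mxd4 were chosen after values were seen. Starts in the table count from 0 and are given with 1 added. mm10 is GRCm38, the build of GENCODE M21 and RefSeq. Symbols missing from the table were sought among RefSeq synonyms. Of 207 promoter windows of listed genes, 184 ended within a GENCODE transcript of that gene in sense and 0 in antisense. Only the computing of log2 ratios and the counting past a fold were tested on simulated ratios. The other steps were not tested in this way. Alternatives were other folds, floors, pseudocounts and scalings. Python 3.11.15, NumPy 2.4.6, pandas 2.3.3 and Matplotlib 3.10.9 were used.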

Additional observations from a re-analysis of the deposited data

How the results depend on the processing

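No paired analysis was possible because single embryos have no values in the data used here, and likewise fits without each replicate were not run. A log2 value was counted as moved past 0.1, since no spread is known, and a count when it was not within 1.5 times of the reported one. At 1.5-fold the members past the limit were 1, Mxd4, as at 2-fold, where 5.01% and 0.991% of expressed genes were past. The lists gave 2 (Sin3), 0 (PRC1.6), 0 (cofactors), 1 (growth genes) and 1 (repressed genes) at 1.5-fold, and 0 each at 2-fold. With at least 5 FPKM in both groups 2 of 4 members were past the fold limit, beside 10.3% of all such genes, PRC1.6 held 1 gene and the cofactors 0, and with every gene above 0 the repressed genes held 6 and the other network genes 2, where 36.2% of all such genes were past, because low genes leave or enter. With a pseudocount of 1 Mxd4 was at 0.87. The ratio of activators to repressors gave -0.72 without Mxd3 and -0.39 without Mxd4. With CANNTG in place of CACGTG 6 of 7 members and 31 of 45 growth genes (68.9%) held a match, beside 66.0% of expressed genes with a window. Over the pseudocounts and scalings Myc stayed between 0.46 and 0.49, Mycn between -0.46 and -0.42, and Mga between -0.025 and 0.0056. Of 127 alternative values 106 were within these tolerances and 21 moved; none of a gene past the fold limit changed sign. For Mnt, Mxd4 and other low genes the precision is not known, since no depth is given.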
